A study of Mus musculus with 6 samples.

Results

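Transcripts of the cytosolic ribosomal protein genes were examined in LT-HSCs (long-term haematopoietic stem cells), which sit in the bone marrow and sustain blood production for life. The members were all genes in the deposited expression table whose symbol has the form of a mouse ribosomal protein gene (Rpl or Rps with a number and an optional final a or x, Rplp0 to Rplp2, and Rpsa). The rule found 77 of 23235 genes, of which 31 encode proteins of the small subunit and 46 proteins of the large subunit. It used names alone and no measured value.

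RNA was sequenced from LT-HSCs of C57BL/6 mice aged 2 months that were either wild type (WT) or carried an Hmces knockout, with 3 libraries per genotype. The HMCES protein attaches itself to DNA positions that have lost their base and so protects single strands. The cells of both groups were sorted from bone marrow after antibody staining, RNA of 1500 cells was amplified by the Smart-seq2 method, and the fragments were read in pairs of 150 bp. The nature of the Hmces allele, the number of mice behind each library and the antibodies of the sort were not stated in the labels, and the titles of all 6 libraries carry a tag of 13 bp that is not explained. Expression was given as FPKM, a fragment count scaled by transcript length and by the fragments of the library. The scaling is meant to make levels comparable between genes of different length. How well it does so for short transcripts, such as that of Rps27 (345 nt), was not checked.

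A ribosome is built from a small subunit, which reads the mRNA, and a large subunit, which joins the amino acids. Most of its proteins are present in a single copy per particle, so cells make them in matched amounts, and their mRNAs share a pyrimidine tract at the 5′ end (the TOP motif) through which mTOR signalling controls their translation. Haematopoietic stem cells are known for low protein synthesis, and loss of 1 working copy of several ribosomal protein genes causes Diamond-Blackfan anaemia in humans.

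Ribosomal protein genes have left many near-identical copies in the mouse genome, and for 4 members such a copy was itself listed at a high level in the table. Coding stretches of 3 of these members and of their copies are shown because the bases that separate them are so few, with the differing base in capitals (5′ to 3′, GENCODE on GRCm38). Counted from the A of the start codon, Rpl26 and its copy Gm15772 differ at 2 of 435 coding bases, C177T and T288C, and the stretch shown runs from base 147 to 206.
Rpl26: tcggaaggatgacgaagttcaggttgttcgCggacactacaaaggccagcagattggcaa
Gm15772: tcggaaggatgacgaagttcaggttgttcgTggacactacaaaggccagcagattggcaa
Rpl30 and Gm12191 differ at 1 of 345 coding bases, G96A, and bases 66 to 125 are shown.
Rpl30: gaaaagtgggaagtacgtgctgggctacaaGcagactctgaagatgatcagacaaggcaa
Gm12191: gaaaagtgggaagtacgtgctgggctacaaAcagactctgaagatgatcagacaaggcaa
Rpl34 and Rpl34-ps1 differ at 2 of 351 coding bases, T132C and C318G, and bases 102 to 161 are shown.
Rpl34: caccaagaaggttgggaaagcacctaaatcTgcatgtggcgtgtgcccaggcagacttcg
Rpl34-ps1: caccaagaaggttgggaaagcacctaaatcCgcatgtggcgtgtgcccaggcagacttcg
In each token the member's base stands first and the copy's base last. These 3 copies are annotated as processed pseudogenes on chromosomes 5, 11 and 6, away from their members on chromosomes 11, 15 and 3. The fourth, Gm9846 (now Rps27rt, chromosome 9), is annotated as protein coding and matched Rps27 (chromosome 3) at all 252 coding bases.

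The targeted gene, listed under its earlier symbol 8430410A17Rik, had 39.5, 45.4 and 41.0 FPKM in the WT libraries and 8.95, 0.222 and 6.95 in the knockout libraries (log2 fold change -3.23, SE 0.71, limma adjusted p = 0.289). The knockout values were all lower. Without knockout replicate 2, which had the lowest value, the difference passed the test (-2.27, limma adjusted p = 0.046). In 17 of the 18 alternative fits it did not (limma adjusted p up to 0.803). Depth, read off the spacing of the lowest FPKM values with an assumed fragment of 200 nt, came to between 9200000 and 14200000 fragments per library. These are rough estimates that were not checked. The search was limited to a fixed range of depths and used transcript lengths from GENCODE on GRCm38, which is not the build of the files. Of 17 stem cell markers, 15 reached a mean FPKM of 1, and Fgd5 and Hoxb5 did not. Markers of granulocytes and monocytes were measured above 0 for 25 of 26 listed genes. Of these 25, 4 were called higher in knockout libraries by limma (0.104% of all genes tested). The summed level of the markers ran from 7466 to 11442 FPKM in WT and from 20645 to 27008 FPKM in knockout libraries. A pair of libraries stood apart in the ribosomal protein genes: knockout replicate 2 held the lowest of the 6 values for 69 of the 77 members (20.9% of all genes tested) and WT replicate 2 the highest for 63 (14.2%). Some results below are therefore also given without 1 of those libraries. Counts of members with non-overlapping groups were made on all 6 libraries only.

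The members were among the most abundant transcripts of these cells. Between 48 and 53 of the 100 most abundant genes of each library were members, and 72 of the 77 lay among the 500 genes with the highest mean. Mean levels over the 6 libraries had a median of 1688 FPKM, 61 members reached 1000 FPKM, and 58 lay within 2-fold of the median. The proteins of the small subunit had the higher transcript levels, with a median of 2111 FPKM against 1441 FPKM for the large subunit.

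Among small subunit members, Rps27 had the highest mean level at 5588 FPKM. Rps28 (4831 FPKM), Rps18 (4587 FPKM), Rps29 (3890 FPKM) and Rps14 (3813 FPKM) came next. Rps27, Rps28 and Rps29 are short proteins, and Rps14 is encoded in the region lost in the human 5q- syndrome. Rps15a stood far below the rest at 89.0 FPKM, and the following lowest small subunit members were Rps21 (857 FPKM), Rps7 (1042 FPKM), Rps3 (1068 FPKM) and Rps23 (1092 FPKM). The values of Rps28 were 5725, 5727 and 4193 FPKM in WT and 4872, 3718 and 4747 FPKM in knockout libraries, so the spread between libraries exceeded the gaps of Rps28 to its neighbours Rps18 and Rps27.

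Among large subunit members, Rpl41, which encodes a peptide of only 25 amino acids, had the highest mean level at 4862 FPKM. It was followed by Rpl13 (4194 FPKM), Rpl32 (3968 FPKM), Rpl3 (3585 FPKM) and Rpl38 (3093 FPKM). Rpl3 reaches towards the peptidyl transferase centre. At the other end stood Rpl34 (61.0 FPKM), Rpl30 (91.9 FPKM), Rpl26 (117 FPKM) and Rpl22 (149 FPKM), well apart from Rpl31 (507 FPKM) and Rpl21 (530 FPKM). The highest and the lowest member thus differed 91.7-fold.

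**Figure D1:**
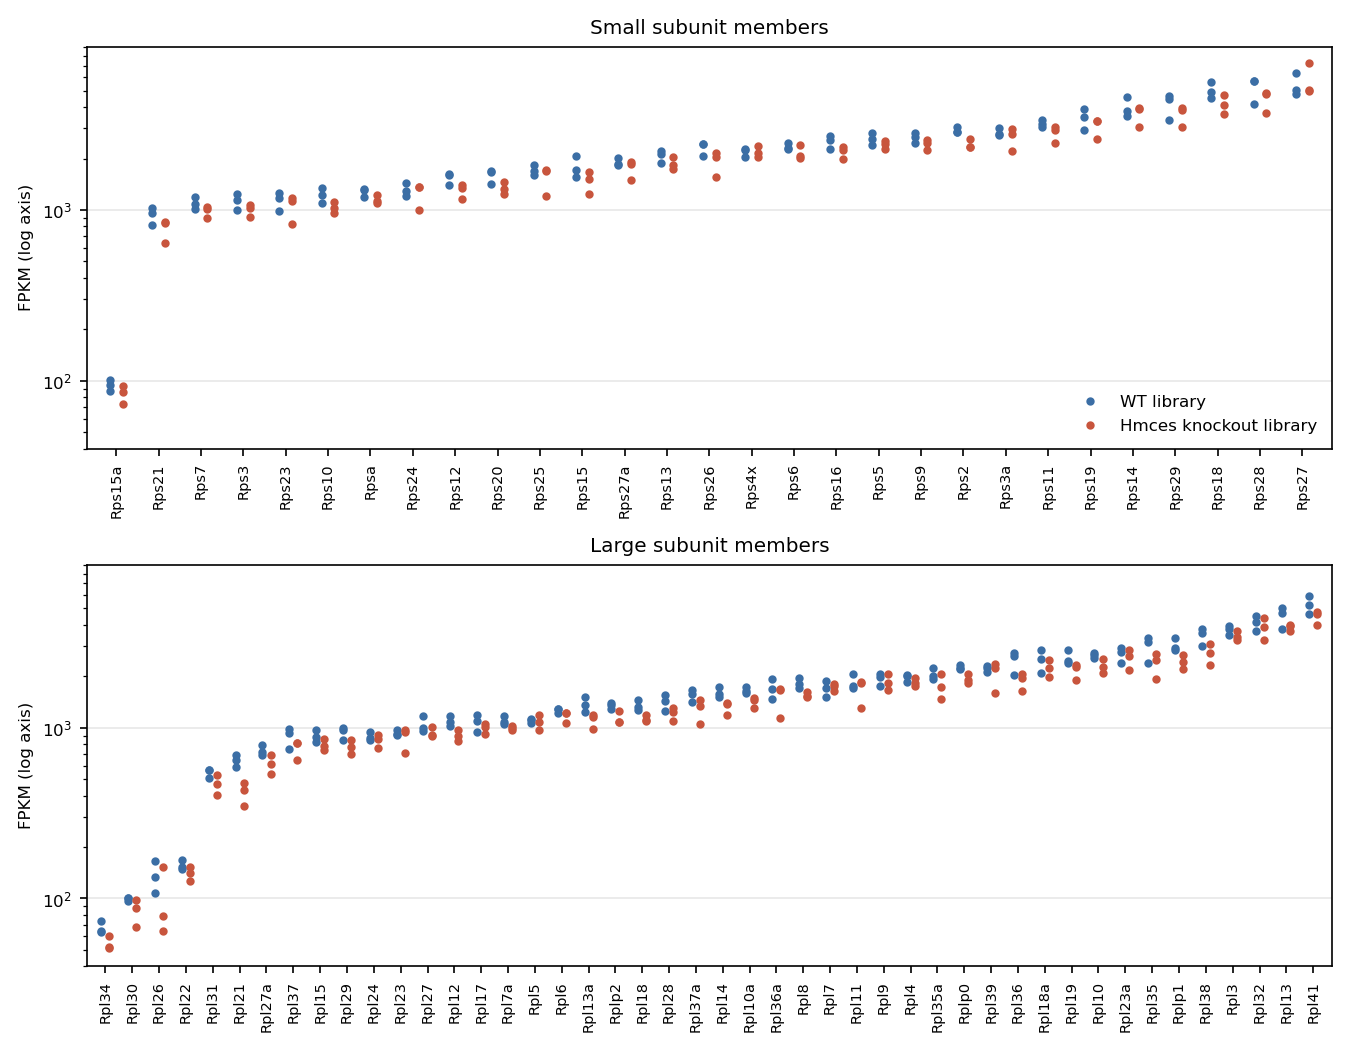
FPKM (log axis) of 29 small subunit members (top) and the 46 large subunit members (bottom), ordered by mean level; each point is 1 library, blue for WT and red for Hmces knockout. Rps15a, Rpl34, Rpl30, Rpl26 and Rpl22 are the 5 members with a mean under 200 FPKM, while 61 of the 77 lie at 1000 FPKM or above.

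For 3 of the 5 low members the near-identical copy was listed far above the member. Gm15772 was listed at 2530, 2758 and 2257 FPKM in WT and 2462, 1697 and 2366 FPKM in knockout libraries, so that Rpl26 made up 4.75% of the sum of both. Gm12191 had a mean of 2039 FPKM, and Rpl30 made up 4.31% of their sum. Rpl34-ps1 had a mean of 2561 FPKM, and Rpl34 made up 2.32% of theirs. Added to their copies, Rpl26, Rpl30 and Rpl34 had mean levels of 2462, 2131 and 2622 FPKM, above the members' median. From which gene these fragments came was not tested, and how fragments were divided between such genes is not stated, so the levels of these 3 members and of Rps27 are uncertain as listed.

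The remaining low members did not reach the range of the others in this way. Rps15a, with 2 listed copies (Gm13253 and Gm11968), came to 127 FPKM in sum. Rpl22 had 1 near-identical copy in the annotation and none in the table. Near-identical meant at least 95% identity over at least 80% of the coding sequence: 74 of the 77 members had such a copy in the annotation, 13 copies of 12 members had a row of their own in the table, and Rpl21 had the most annotated copies, 57. Across the 77 members the number of copies showed little relation to the mean level (Spearman's rho -0.09, Pearson's r -0.14, a description over genes that share the same libraries).

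**Figure D2:**
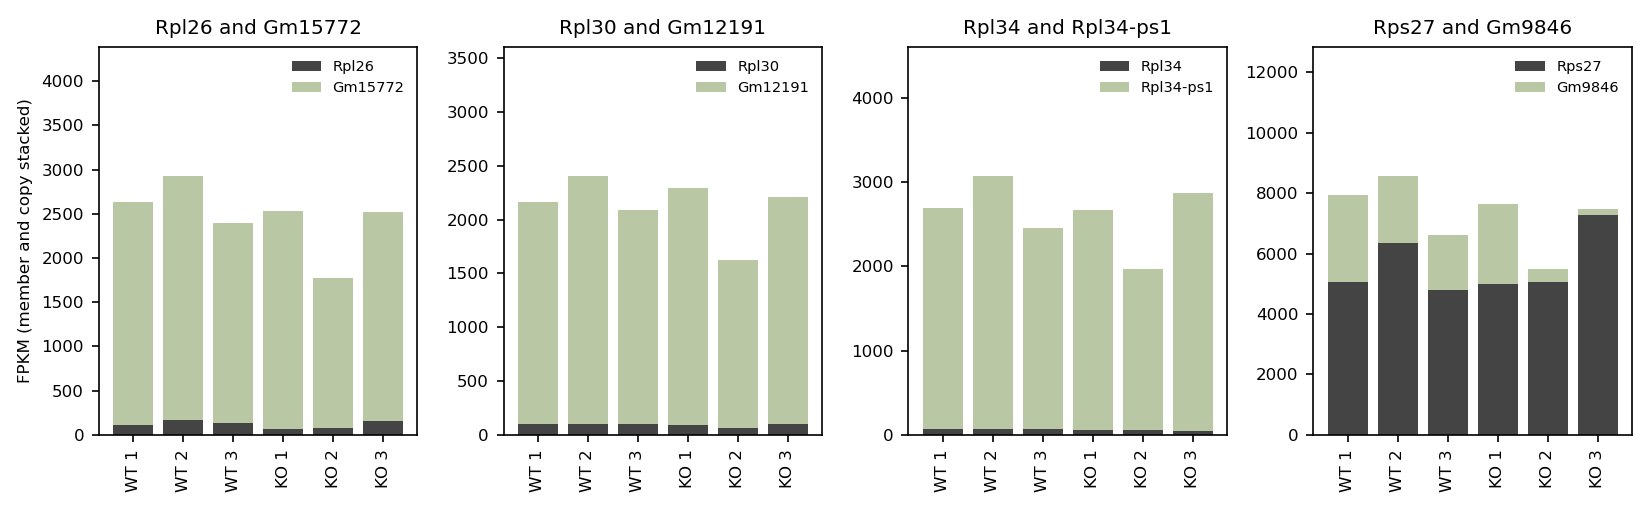
FPKM per library of Rpl26, Rpl30, Rpl34 and Rps27 (dark) stacked with that of the near-identical copy named in each panel (light); WT and KO (Hmces knockout) replicates are numbered. The copy makes up nearly all of the summed level for Rpl26, Rpl30 and Rpl34, and for Rps27 the copy shrinks to 445 and 216 FPKM in knockout replicates 2 and 3.

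The members together took 19.95%, 21.0% and 19.8% of the FPKM sum in WT libraries (20.3% ± 0.671, SD, n = 3) and 18.9%, 17.1% and 18.8% in knockout libraries (18.3% ± 1.05, SD, n = 3). Every knockout share lay below every WT share, and the lowest was that of knockout replicate 2, without which the knockout mean was 18.9%. With small RNA genes left out of the sum the groups overlapped, with 21.1% in WT replicate 3 and 21.5% in knockout replicate 3. The FPKM sums themselves ran from 711122 in knockout replicate 2 to 802613 in WT replicate 2. The share of granulocyte and monocyte markers moved the other way, from between 1.03% and 1.43% in WT to between 2.82% and 3.48% in knockout libraries. With those markers left out of the sum the members took 20.5% ± 0.719 and 18.9% ± 1.12 (SD, n = 3 each), and the part of such cells in the difference was otherwise not tested. Genes of small RNAs took between 6.37% and 12.3% of the sum. In bulk RNA of sorted cells, fewer cells of a type and less RNA per cell cannot be told apart.

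The small subunit took 9.66% ± 0.374 of the WT sums and 8.85% ± 0.569 of the knockout sums (SD, n = 3 each). For the large subunit the shares were 10.6% ± 0.304 and 9.43% ± 0.493 (SD, n = 3 each). A small subunit member had on average 1.36, 1.37 and 1.33 times the level of a large subunit member in WT and 1.38, 1.37 and 1.43 times in knockout libraries, a mean of 1.35 and 1.39. The groups nearly touched, at 1.37. With near-identical copies added to their members the ratios were 1.30, 1.29 and 1.26 in WT and 1.31, 1.28 and 1.30 in knockout libraries, and the groups overlapped. The means were then 1.28 and 1.29.

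**Figure D3:**
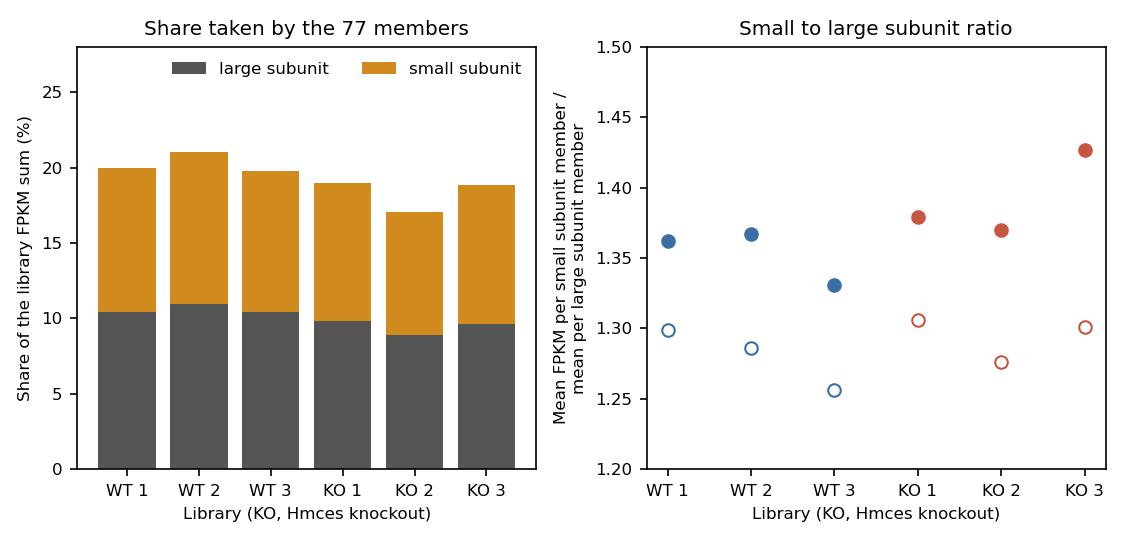
Left, share of each library's FPKM sum (%) taken by large subunit (grey) and small subunit (orange) members; right, ratio of mean FPKM per small subunit member to mean per large subunit member (filled, as listed; open, with near-identical copies added). WT libraries (blue) and knockout libraries (KO, red) overlap in the open points.

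In the comparison of knockout with WT libraries no member was called by limma at an adjusted p under 0.05 (0.113% of the 11532 genes tested were called, 13 in all; 0.104% were higher and 0.00867% lower in knockout libraries). All 77 members passed the filter of a mean FPKM of at least 1. The log2 fold change, taken as knockout minus WT after log2(FPKM + 1), was negative for 75 of the 77, against 51.9% of all genes tested. Its median was -0.20 for the members and -0.01 for all genes tested, and the median member had a knockout mean 12.8% lower than its WT mean. The smallest adjusted p of a member was 0.289. At an unadjusted p under 0.05, 14 members were lower in knockout libraries (4.84% of all genes tested) and 0 were higher (4.32%). All 3 knockout values were below all 3 WT values for 19 members (8.34% of all genes tested), and the reverse held for 0 (7.47%).

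These values depended on single libraries and on the fit. Without knockout replicate 2 the members' median was -0.12, 64 were negative, and 3 were lower at an unadjusted p under 0.05. Without WT replicate 2 the median was -0.15 and that count was 1. It was 4 without WT replicate 1, 6 without knockout replicate 3, and 1 on all libraries with no variance trend in the fit. After quantile normalization the median was -0.10 with 64 negative. Rescaled to TPM, a unit in which each library has the same sum, the median was -0.16 with 73 negative, and 35 members had non-overlapping lower knockout values (6.76% of all genes tested), against 19 on FPKM.

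**Figure D4:**
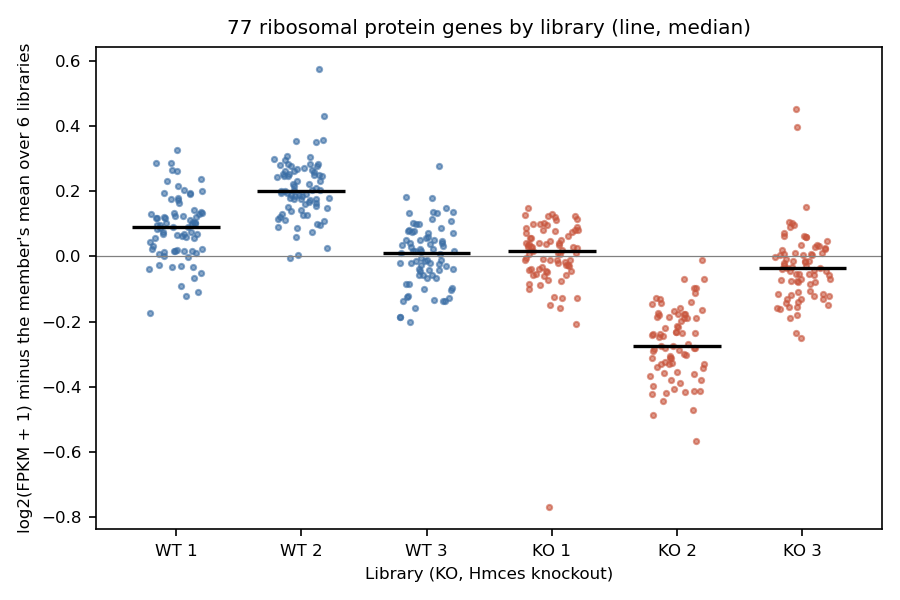
Deviation of each of the 77 members in each library from that member's mean over the 6 libraries, in log2(FPKM + 1); points are members and lines are medians. The median lies at 0.20 in WT replicate 2 and at -0.28 in knockout replicate 2, with the other 4 libraries between -0.04 and 0.09.

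Nearly all members of both subunits had a negative value, but the members that stood out were mostly of the large subunit. For the small subunit the median log2 fold change was -0.17, with 3 of 31 members without overlap and 1 lower at an unadjusted p under 0.05. For the large subunit the median was -0.22, and the counts were 16 and 13 of 46. Over all genes tested these shares were 8.34% and 4.84%, so the small subunit lay near the background in both. The difference between subunits was not tested, since the members were chosen as a group. The split by subunit was counted on all 6 libraries only. Over both subunits, the count lower at an unadjusted p under 0.05 fell from 14 to 3 without knockout replicate 2. Without WT replicate 2 it fell to 1.

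The P stalk, which recruits the elongation factors to the large subunit, was the only structural group described here in which every member had non-overlapping groups. Its 4 members are among the 16 of 46 large subunit members with lower knockout values without overlap (8.34% of all genes tested). Rplp1 had 2915, 3368 and 2865 FPKM in WT and 2668, 2207 and 2430 FPKM in knockout libraries (log2 fold change -0.33, SE 0.11, limma adjusted p = 0.488). Its partner Rplp2 had 1351, 1389 and 1280 FPKM against 1246, 1073 and 1087 FPKM (-0.24). The scaffold protein Rplp0 had 2204, 2324 and 2246 FPKM against 2076, 1833 and 1912 FPKM (-0.22). Rpl12, at the base of the stalk, had 1022, 1178 and 1087 FPKM against 965, 841 and 889 FPKM (-0.29). None of the 4 passed the adjusted test, and the median of the 4 was -0.26, or -0.22 without knockout replicate 2 and -0.15 after quantile normalization.

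Rpl5 and Rpl11, which with 5S rRNA form the particle that binds Mdm2 when ribosome assembly fails, showed small differences. Rpl5 had 1060, 1103 and 1122 FPKM in WT and 1181, 967 and 1083 FPKM in knockout libraries (log2 fold change -0.03, SE 0.10). Rpl11 had 1764, 2068 and 1718 FPKM against 1839, 1302 and 1851 FPKM (-0.17, SE 0.16), and its only value below the WT range was that of knockout replicate 2. Both estimates turned positive without that replicate, to 0.05 and 0.00, and Rpl5 also did so after rescaling to TPM and after quantile normalization.

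The 7 listed members around the mRNA channel and decoding site were all lower in the knockout mean, with a median log2 fold change of -0.23, or -0.10 without knockout replicate 2 and -0.13 after quantile normalization. Rps2, at the mRNA entry, was the one whose groups did not overlap, with 2845, 3064 and 2868 FPKM in WT and 2587, 2334 and 2333 FPKM in knockout libraries (-0.28, SE 0.09, limma adjusted p = 0.482). Rps3, also at the entry, had log2 fold change -0.17. At the exit, Rps26 had -0.28, Rps28 -0.23 and Rps14 -0.13. Near the decoding site, Rps15 had -0.27 and Rps23 had -0.13, and the value of Rps23 turned to 0.03 without knockout replicate 2.

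Of the proteins that join the particle late, Rpl10 had 2572, 2665 and 2731 FPKM in WT and 2511, 2086 and 2272 FPKM in knockout libraries, without overlap (log2 fold change -0.22, SE 0.10, limma adjusted p = 0.552). Rpl24 overlapped (-0.08). Rpl10 is also X-linked, as are Rps4x, Rpl36a and Rpl39. Rps4x was the member closest to no difference, with 2049, 2275 and 2240 FPKM against 2361, 2041 and 2152 FPKM (-0.00, SE 0.10). Rpl36a (-0.19) and Rpl39 (-0.12) had knockout values that overlapped WT, with knockout replicate 2 the lowest. The 9 members at the peptide exit tunnel were all negative as well, with a median of -0.23, or -0.13 without knockout replicate 2 and -0.09 after quantile normalization. Rpl19 (-0.25) was the one among them without overlap. Rps27a, which is made as a fusion with ubiquitin, had -0.13 and overlapped as well.

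For the 15 members whose human counterparts are established Diamond-Blackfan anaemia genes, the median was -0.17 and 14 were negative, but none had non-overlapping groups. Their median was -0.09 without knockout replicate 2, -0.10 without WT replicate 2 and -0.25 without WT replicate 3. Rps19, the gene most often mutated in that disease, had 3507, 3882 and 2939 FPKM in WT and 3300, 2616 and 3304 FPKM in knockout libraries (-0.16, SE 0.14). Among the others, Rps10 (-0.24), Rps7 (-0.16), Rps24 (-0.09), Rps29 (-0.19), Rpl15 (-0.17), Rpl27 (-0.15) and Rpl35a (-0.24) lay between -0.24 and -0.09. The extremes of the 15 were Rpl26 (-0.54) and Rps27 (0.08).

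Rpl21, a large subunit protein, had the most negative value of the members. Its levels were 647, 696 and 585 FPKM in WT (643 ± 55.3, SD, n = 3) and 473, 348 and 433 FPKM in knockout libraries (418 ± 64.1, SD, n = 3). The groups were apart, with log2 fold change -0.63 (SE 0.14, limma adjusted p = 0.289). It lay 4.3 median absolute deviations (MAD) below the members' median. The value ranged from -0.72 to -0.50 over the 18 alternative fits and was -0.59 with its listed copy BC004004 added. The part of its other annotated copies was not tested.

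Rpl26 was the only other member more than 3 MAD from the median. Its levels were 107, 166 and 134 FPKM in WT and 64.5, 78.7 and 152 FPKM in knockout libraries, overlapping, with log2 fold change -0.54 (SE 0.31, limma adjusted p = 0.645) and a knockout coefficient of variation of 47.6%. Rps27 (22.7%) and Rpl36a (20.9%) had the next largest within-group coefficients. The median coefficients over members were 8.44% in WT and 10.2% in knockout libraries. With Gm15772 added the log2 fold change of Rpl26 was -0.24 (SE 0.16), within the range of the other members. With their copies added, Rpl34 changed from -0.30 to -0.14 and Rpl30 from -0.24 to -0.13.

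Rps27 had the most positive value. Its levels were 5074, 6364 and 4800 FPKM in WT and 4975, 5041 and 7272 FPKM in knockout libraries (log2 fold change 0.08, SE 0.17). Knockout replicate 3 alone lay above the WT range. The identical copy Gm9846 had 2860, 2191 and 1809 FPKM in WT and 2650, 445 and 216 FPKM in knockout libraries (-1.82, SE 0.78, limma adjusted p = 0.54). Knockout replicate 1 lay within the WT range of the copy and the others far below it. In sum, Rps27 and Gm9846 had 7933, 8555 and 6610 FPKM in WT and 7625, 5486 and 7487 FPKM in knockout libraries, with log2 fold change -0.17 (SE 0.16). The sign of Rps27 thus depended on whether its copy was counted, and with all copies added 76 of the 77 members were negative.

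The next most negative members were all of the large subunit. Rpl36 had 2620, 2752 and 2023 FPKM in WT and 1963, 1650 and 2068 FPKM in knockout libraries (-0.37, SE 0.14, limma adjusted p = 0.514). Rpl38, known for its part in the translation of Hox mRNAs, had 3604, 3774 and 2997 FPKM against 3107, 2335 and 2741 FPKM (-0.35, SE 0.14, limma adjusted p = 0.524). In both, WT replicate 3 lay within the knockout range. Rpl35 (-0.32) sits at the exit tunnel, and Rpl13a (-0.30) is also known as a silencer of inflammatory mRNAs. At the positive end stood Rpl7 (0.03), and after Rps27, Rpl7, Rps4x and Rpl5 came Rpl9 (-0.07).

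**Figure D5:**
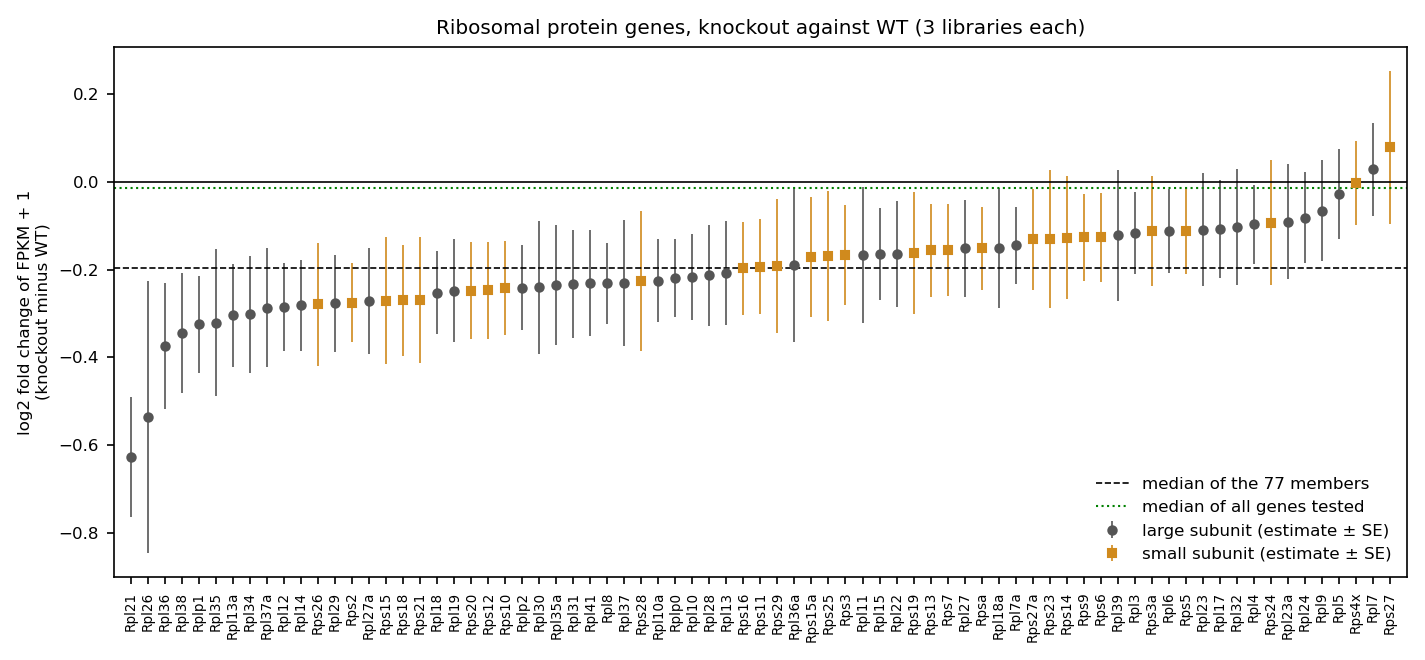
Log2 fold change (knockout minus WT, log2(FPKM + 1) scale) with its standard error for 75 of the 77 members, from 3 libraries per group; grey circles are large and orange squares small subunit members, and lines mark the medians of the members and of all genes tested. Rpl21 (-0.63) and Rpl26 (-0.54) lie apart at the left, and 2 members, Rpl7 and Rps27, lie above 0.

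Members with a shorter coding sequence or a more GC-rich transcript tended to have the more negative values. Across the 77 members the log2 fold change had Spearman's rho 0.34 (Pearson's r 0.29) with coding length, which ran from 75 nt in Rpl41 to 1257 nt in Rpl4. With GC content of the transcript it had rho -0.39 (r -0.32). The mean level had rho 0.38 (r 0.31) with GC content and rho -0.01 (r 0.08) with coding length. Length and GC content were taken from a single annotated coding transcript per gene, which need not be the one mainly expressed. For Rps20 that transcript had 3706 nt, with 357 coding nt. The relations are descriptions across genes that share the same 6 libraries.

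Promoters of 57 of the 77 members were available (RefSeq, GRCm38.p6, 250 bases before to 50 after each start). They were searched on both strands for CGGAAG, the core of the sites bound by ETS factors such as GABP, and for CTCTTTC, a pyrimidine run of the kind found where transcripts of these genes start. CGGAAG was present in 40 of 57 members (70.2%), against 18.8% of 27025 genes with a promoter and 36.8% of the 8120 that were tested. CTCTTTC was present in 18 of 57 (31.6%), against 9.28% and 8.71%. Windows of 120 bases, 100 before the start and 20 from it on, are shown for 4 members. Their mean levels all lay above the members' median, and their log2 fold changes ran from -0.35 (Rpl38) to 0.08 (Rps27). CGGAAG or its reverse complement is in capitals.
Rpl38, chr11:114668480-114668599, plus strand: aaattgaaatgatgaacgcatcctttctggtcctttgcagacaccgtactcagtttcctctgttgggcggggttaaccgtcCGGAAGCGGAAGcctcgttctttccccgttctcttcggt
Rpl41, chr10:128549149-128549268, minus strand: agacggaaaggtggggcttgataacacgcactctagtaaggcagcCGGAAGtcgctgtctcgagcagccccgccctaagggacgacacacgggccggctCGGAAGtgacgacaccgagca
Rps27, chr3:90213629-90213748, minus strand: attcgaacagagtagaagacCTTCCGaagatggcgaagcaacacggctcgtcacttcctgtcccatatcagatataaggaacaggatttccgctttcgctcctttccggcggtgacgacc
Rps4x, chrX:102189372-102189491, minus strand: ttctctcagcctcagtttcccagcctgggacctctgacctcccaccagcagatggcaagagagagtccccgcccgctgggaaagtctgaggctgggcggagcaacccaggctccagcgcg
Rpl38 and Rpl41 hold the letters 2 times, Rps27 holds them 1 time, and Rps4x does not hold them in this window. The median log2 fold change was -0.22 for the 40 members with CGGAAG and -0.16 for the 17 without it. For CTCTTTC the medians were -0.21 for 18 members and -0.20 for 39. A match is a run of letters and not a measured binding site.

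Ribosomal proteins whose symbol the rule does not match, and relatives of ribosomal proteins, formed a list of their own. All 9 that were tested were negative, with a median log2 fold change of -0.14 (-0.03 after quantile normalization), 0 without overlap, 0 called by limma and 0 at an unadjusted p under 0.05. Rpl36al had 789 ± 102 FPKM against 636 ± 89.0 in the knockout (SD, n = 3 each). Rps27l (747 and 660 FPKM), Fau (1745 and 1564 FPKM), which encodes the small subunit protein eS30, and Gnb2l1 (983 and 892 FPKM), which encodes Rack1, followed. Lower levels were listed for other genes of the group, with means of 451 and 424 FPKM (Rpl22l1), 104 and 101 FPKM (Rpl7l1), 122 and 116 FPKM (Rsl24d1), and 169 and 166 FPKM (Rsl1d1). Rsl24d1 and Rsl1d1 take part in ribosome assembly and are not proteins of the finished ribosome.

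Other genes of translation were counted from lists, and limma called 0 of them in either direction. Their counts stand against 51.9% of all genes tested with a negative value, 8.34% with knockout values wholly below WT values, and 4.84% lower at an unadjusted p under 0.05. The 8 genes listed under elongation factors were all negative, with a median of -0.20. The list includes Eef2k, a kinase of Eef2, and Eef1e1, neither of which is itself an elongation factor. Of the 8, 5 (Eef1e1 among them) had non-overlapping groups and 3 were lower at an unadjusted p under 0.05. Eef2, which moves the ribosome along the mRNA, had 775, 715 and 723 FPKM in WT and 417, 547 and 439 FPKM in knockout libraries (log2 fold change -0.67, SE 0.12, limma adjusted p = 0.187). Eif5a, which resolves stalled peptides, had 2029 ± 84.2 FPKM against 1593 ± 18.9 (SD, n = 3 each; -0.35). Eef1g had 872 ± 64.9 FPKM against 687 ± 86.2 (SD, n = 3 each; -0.35). By contrast, Eef1a1, the most abundant of the 8, had means of 5084 FPKM in WT and 5014 FPKM in knockout libraries (-0.02). It overlapped, as did Eef1b2 (-0.08). Of 20 other mRNAs with a TOP tract, 18 were negative, 7 did not overlap and 4 were lower at an unadjusted p under 0.05, with a median of -0.10 (-0.03 after quantile normalization and -0.06 in TPM). Among them Nap1l1, a histone chaperone, had -0.39.

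Ribosome assembly factors had a median of -0.16, with 42 of 50 negative, 8 without overlap and 6 lower at an unadjusted p under 0.05. Over all genes tested these shares were 51.9%, 8.34% and 4.84%. Fbl (fibrillarin), which methylates ribosomal RNA, had 205, 214 and 235 FPKM in WT and 160, 129 and 153 FPKM in knockout libraries (-0.57, SE 0.12, limma adjusted p = 0.289). Gar1, of the particles that make pseudouridine, had 53.1 ± 7.10 FPKM against 30.6 ± 15.2 (SD, n = 3 each; -0.88). The 75 mitochondrial ribosomal proteins had a median of -0.17, with 59 negative, 10 without overlap and 5 lower at an unadjusted p under 0.05, the last count near the background. Without knockout replicate 2 their median was -0.10. The cytosolic members had a median of -0.20, and the lists were not tested against each other. Mrpl12 (-0.39), Mrpl54 (-0.44) and Mrps24 (-0.29) had the smallest p-values among them.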

How the data were processed

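The authors deposited 1 table of FPKM per gene with a column for each of the 6 libraries. TopHat2 2.1.1, Cufflinks 2.2.1 and the build mm9 are named, per the submitters' processing notes; the annotation, the use of strand and the treatment of fragments with several matches are not stated. Values are relative to the other transcripts of a library, and a gene listed at 0 can be a failed estimate. The fit covered genes whose mean FPKM reached 1, as log2(FPKM + 1), which understates changes of low genes, by limma 3.58.1 (R 4.3.3; functions lmFit and eBayes, trend on) with no term besides genotype. Two-sided p-values were adjusted over the 11532 tested genes (Benjamini-Hochberg), with a threshold of 0.05 for a call. The fit was tested on simulated data with independent genes, in which the set changes were larger than the differences of the members. That test does not cover small differences or shifts shared by many genes of a library. The labels do not say that libraries came from separate mice, so p-values reflect the spread among these samples alone, and that spread may be technical. The design text speaks of duplicates, while the labels list 3 libraries per genotype, and these were used.

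The members and lists were chosen with earlier results of these data known, so no list was tested. Named were the 5 highest and 5 lowest members per subunit, the 8 most negative and 5 most positive, those over 3 MAD (scaled) from the median, the 3 with the largest coefficients of variation, short structural and disease lists in full, and the 3 genes with the smallest p of each pathway list. The low-expressed copies, the other genes with non-overlapping groups and the genes of the promoter windows were named after their values were seen. So were Eef1a1, Eef1b2, Eef1e1 and Eef2k. Deviations of libraries with the same number correlated at 0.08, 0.01 and 0.04 over genes. Those of libraries with different numbers correlated at -0.08 to 0.05. Correlations this weak cannot show whether the numbers pair the libraries. Copies were found with blastn 2.17.0 between coding sequences and transcripts of GENCODE on GRCm38. Coordinates are given only for promoters, on GRCm38.p6, which is not the build of the files. Some genes that the rule for naming would cover are not reported here. No molecular identifiers are stated, so fragments are not independent molecules.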

Additional observations from a re-analysis of the deposited data

How the results depend on the processing

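No ribosomal protein member and no listed pathway gene was called under any of the 18 alternative fits, and the members' median log2 fold change stayed negative in each (-0.25 to -0.10; -0.25 to -0.12 with 1 library left out). The count of all genes called moved from 13 to 3 with no filter on low values and to 6 with no variance trend. It was 20 with robust moderation and 2 with the replicate number as a block. Whether the numbers pair the libraries is not settled. With 1 library left out the count of all genes called ran from 2 to 19. Members lower at an unadjusted p under 0.05 ran from 1 to 25. Shares of the FPKM sum rose to 22.3% (WT) and 20.5% (knockout) when small RNA genes were left out of the sum, and the WT share was 21.5% with copies added. With 1 library left out they ran from 19.9% to 20.5% and from 17.9% to 18.9%. The small to large ratio was 1.46 (WT) and 1.52 (knockout) from medians, and 1.28 and 1.29 with copies added. With 1 library left out it ran from 1.35 to 1.36 and from 1.37 to 1.40.

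Signs turned for genes near 0, and the cause was not tested. After quantile normalization the log2 fold changes were 0.013 for Rpl5, -0.26 for Rps27, 0.17 for Rps4x, 0.083 for Rpl9, 0.0049 for Rps27a, 0.040 for Rpl39, 0.039 for Rps24, 0.0068 for Gm12191 and 0.023 for Rpl34-ps1. Rescaled to TPM they were 0.0058 for Rpl5 and 0.031 for Rps4x, and to TPM without granulocyte and monocyte markers 0.033 and 0.058. Median-ratio scaling gave 0.011 for Rps4x, and adding copies gave -0.17 for Rps27. With 1 library left out, values ran from -0.050 to 0.10 for Rpl7, -0.060 to 0.045 for Rps4x, -0.10 to 0.20 for Rps27, -0.097 to 0.047 for Rpl5, -0.25 to 0.0013 for Rpl11, -0.15 to 0.0100 for Rpl9, -0.23 to 0.026 for Rps23, -0.23 to 0.051 for Rpl39, -0.17 to 0.055 for Rps24, -0.20 to 0.0092 for Rpl32, -0.22 to 0.028 for Gm12191 and -0.25 to 0.028 for Rpl34-ps1. The alternatives with copies added and without granulocyte and monocyte markers were chosen after seeing the data. Leaving mitochondrially encoded genes out of the sum was not run, because no symbol names them.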

Other observations

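Initiation factors, RNA polymerase I and regulators were counted in the same way, with 0 called by limma in each list. At an unadjusted p under 0.05, 0 initiation factors, 2 genes of RNA polymerase I and its factors (lower) and 2 regulators (higher) passed, against 4.84% (lower) and 4.32% (higher) of all genes tested. The 35 initiation factors had a median log2 fold change of -0.07 with 25 negative, against 51.9% of all genes tested. The median was -0.12 without WT replicate 1 and -0.02 without WT replicate 3. Eif3g had 243 ± 19.4 FPKM against 210 ± 11.7 in the knockout, and Eif4e, the cap-binding protein, had 106 ± 16.6 and 125 ± 4.35 (SD, n = 3 each). Eif2b5 varied from 9.56 to 38.7 FPKM among knockout libraries. RNA polymerase I and its factors, which make the ribosomal RNA precursor, had a median of -0.14 with 9 of 14 negative (-0.22 without knockout replicate 3). Knockout values lay wholly below WT values for 3 of the 14, against 8.34% of all genes tested. Polr1c had 47.8, 48.5 and 55.5 FPKM in WT and 41.2, 37.0 and 36.2 FPKM in knockout libraries, without overlap (-0.40, limma adjusted p = 0.49). Polr1d (-0.32) did not overlap either, whereas Ubtf (-0.50) had 1 low library, 14.6 FPKM in knockout replicate 1.

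The 28 listed regulators of ribosomal protein mRNAs had a median of 0.00, with 14 negative and 14 positive. Knockout values lay wholly above WT values for 3 of the 28 and wholly below for 1. Over all genes tested these shares were 7.47% and 8.34%. Mycn, a transcription factor of the Myc family, had 36.2, 39.3 and 35.1 FPKM in WT and 42.7, 64.2 and 50.9 FPKM in knockout libraries (log2 fold change 0.48, limma adjusted p = 0.495). Ltn1, a ligase of ribosome quality control, had 0.60, and Hbs1l, a ribosome rescue factor, had 0.32, and in both all 3 knockout values were above the WT values. The 9 macrophage markers measured were all lower in the knockout mean, and their summed level ran from 38.7 to 174 FPKM in WT and from 12.9 to 94.95 FPKM in knockout libraries.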
